A study of Mus musculus with 28 samples.

Results

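Of 83292 open chromatin regions found in periosteal progenitor cells, 1843 (2.21%) had an ATAC-seq peak in all 3 cko libraries and in no ctrl library, and these gained regions are described here. They lay away from gene starts, mostly in introns and between genes, and were spread over all autosomes. The 802 regions (0.963%) with the opposite pattern are called lost regions below. The cells were Ai9/td-Tomato+ Sca1+ cells sorted from periosteum (pSSCs), a stem and progenitor population of the outer bone surface, from mice labelled PrxCre and 20 weeks old. The target of the deletion is Z24 (Zmpste24). The genotype label reads Z24 fl/fl for the libraries of both groups, and the titles alone separate ctrl from cko. The study used several kinds of control, and which of them these ctrl libraries come from is not given in the labels. Since td-Tomato+ cells were sorted in both groups, both carry a Cre and the Ai9 reporter. Prx1 Cre acts in early limb mesenchyme and is not restricted to the periosteum. The comparison population was CD73+ cells of the growth plate (gpSSCs), with the same labels, age and number of libraries. How many mice stand behind a library is not given in the labels, so each p-value below measures the spread between these samples.

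Chromatin that a transposase can reach is usually bare of tightly packed nucleosomes, and ATAC-seq reads such places as peaks. Peaks at gene starts mark promoters, which are open in most cells, whereas peaks in introns and between genes are often enhancers, whose opening differs between cell types and states. Zmpste24 is the protease that trims prelamin A to mature lamin A, a protein of the mesh under the nuclear envelope that holds condensed chromatin at the nuclear edge. Its loss leaves prelamin A in place and gives mice with features of premature ageing, including bone loss.

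Only 49 promoters of the RefSeq table (from 250 bases before to 50 bases after a start) had at least 150 bases inside a gained region, among 32851 promoters in the table. The 250 bases before 5 of these starts are printed below, 5′ to 3′ on the strand of the gene, from RefSeq on GRCm38.p6. They were chosen after their values were seen, for what the genes are known to do. Fblim1 encodes a filamin-binding protein of focal adhesions (chr4:141606053-141606302, minus strand). Fgf23 encodes a phosphate-regulating hormone made by bone cells (chr6:127072652-127072901, plus strand). Nt5dc2, a gene of the 5′-nucleotidase domain family (chr14:31134486-31134735, plus strand), had the RNA difference with the smallest p of all nearest genes in the fit without the replicate number as a block. Bglap encodes osteocalcin, a protein of mineralized bone matrix (chr3:88384467-88384716, minus strand). Cdkn2a encodes inhibitors of the cell cycle that accumulate in senescent cells (chr4:89282193-89282442, minus strand). Capitals mark the letters of 3 motifs searched on both strands, TGANTCA for AP-1 (the same on both strands and counted once a place), TGTGGT for RUNX and GGAATG for TEAD, and no marked motifs overlap.
Fblim1: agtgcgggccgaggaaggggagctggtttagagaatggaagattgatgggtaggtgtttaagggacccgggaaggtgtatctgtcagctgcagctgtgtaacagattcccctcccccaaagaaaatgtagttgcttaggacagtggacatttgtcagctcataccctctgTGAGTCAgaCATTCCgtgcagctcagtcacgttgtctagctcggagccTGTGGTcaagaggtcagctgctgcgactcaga
Fgf23: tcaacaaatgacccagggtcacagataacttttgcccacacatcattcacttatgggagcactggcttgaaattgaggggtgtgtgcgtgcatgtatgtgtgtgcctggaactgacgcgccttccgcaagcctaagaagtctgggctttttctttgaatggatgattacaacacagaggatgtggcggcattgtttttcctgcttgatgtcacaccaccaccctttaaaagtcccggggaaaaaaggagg
Nt5dc2: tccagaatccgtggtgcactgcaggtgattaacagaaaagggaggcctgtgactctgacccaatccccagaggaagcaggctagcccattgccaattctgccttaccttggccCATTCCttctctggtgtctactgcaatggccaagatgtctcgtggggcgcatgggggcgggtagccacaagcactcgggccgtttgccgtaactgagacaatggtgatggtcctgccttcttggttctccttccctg
Bglap: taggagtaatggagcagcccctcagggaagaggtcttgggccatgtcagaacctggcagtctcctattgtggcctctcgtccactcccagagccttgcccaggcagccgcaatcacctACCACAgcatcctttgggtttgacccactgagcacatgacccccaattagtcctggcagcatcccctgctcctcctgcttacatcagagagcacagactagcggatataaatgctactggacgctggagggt
Cdkn2a: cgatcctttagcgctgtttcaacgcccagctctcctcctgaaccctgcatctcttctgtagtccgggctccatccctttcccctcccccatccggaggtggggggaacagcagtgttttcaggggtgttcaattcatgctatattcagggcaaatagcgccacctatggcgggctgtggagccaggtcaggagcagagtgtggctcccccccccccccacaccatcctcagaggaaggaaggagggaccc

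The run before Fblim1 held all 3 motifs, the AP-1 letters starting at position -80 from the start, the run before Nt5dc2 held TEAD letters at -137, the run before Bglap held RUNX letters at -132, and those before Fgf23 and Cdkn2a held none of the 3. Over whole 300-base windows, AP-1 letters were in 7 of the 49 promoters (14.3%), compared with 7.81% of all 32851 and 5.17% of the 13009 inside shared regions (a peak in all 6 libraries). RUNX letters were in 20.4% of the 49 (16.8% of all), TEAD letters in 24.5% (14.7% of all) and the ETS letters CCGGAA in 10.2% (14.9% of all, and 28.7% of those in shared regions). Of the 14 promoters inside lost regions, 21.4% held RUNX letters, 21.4% TEAD letters and none AP-1 letters. These are 4 of 15 motifs searched, and others were rarer in gained than in all promoters, such as the TWIST E-box letters CAGATG with 8.16% compared with 17.2%. With 49 promoters, 1 promoter moves a share by about 2 points, and no test was made. A match is a run of letters and not a bound site. The median GC content of the 49 windows was 56.3%, between that of all promoters (52.7%) and that of the windows in shared regions (62.0%).

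The members were chosen by the presence and strength of peaks in the 6 pSSCs libraries, so peak counts, strengths and widths are given as a description. The ctrl libraries held 13932350, 12250713 and 26371117 tags and the cko libraries 17894469, 15115534 and 46756821, and the deposited lists held 63495, 59186 and 79692 peaks on the main chromosomes in ctrl and 72346, 84019 and 101564 in cko. Each list was cut to its 59186 strongest peaks by -log10 q-value (q below), the length of the shortest list, that of ctrl 2. The weakest peak kept had a q of 4.23, 1.32 and 8.06 in ctrl 1 to 3 and 6.05, 8.24 and 14.95 in cko 1 to 3, and the strongest peak left out had the same value to 3 digits in each library that lost any. Pairs of cko libraries had 74.7% to 77.2% of their regions in both, and ctrl 1 with ctrl 3 had 75.5%. Pairs with ctrl 2, the shallowest library, had 62.2% to 69.2%, and ctrl 3 shared 70.8% to 73.4% with the cko libraries.

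The gained regions were weak peaks in the lists that define them. Their median q was 10.0 in cko 1, 15.2 in cko 2 and 29.3 in cko 3, compared with 30.7, 35.2 and 58.7 for shared regions, and 94.5%, 84.4% and 80.5% of them ranked below the middle of the list. The median pileup at the summit was 20.0, 27.0 and 59.0 tags, and the median fold enrichment over local background was 5.83, 7.52 and 7.16. The 1843 regions were 255 to 2243 bp wide with a median of 640 bp, compared with 560 bp for lost and 983 bp for shared regions, and covered 1255 kb in all.

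Absence of a peak from a cut list is not absence of signal. Of the 1843 gained regions, 957 (51.9%) had a peak below the cut in the full list of ctrl 3, with a median q of 5.31, 93 (5.05%) had such a peak in ctrl 1, and none could have one in ctrl 2, whose list was not shortened. No peak in any full ctrl list was found for 862 gained regions (46.8%), compared with no peak in any full cko list for 42 of the 802 lost regions (5.24%). Another 2153 regions had peaks in all 3 cko libraries and in 1 ctrl library, which was ctrl 3 for 1367 of them, and 2972 had none in ctrl and peaks in only 2 cko libraries, with cko 1 the missing library for 1773. Without ctrl 3 the rule gave 3214 regions and without cko 1 it gave 3616. Depth and list length were not balanced between the groups, with cko 3 the deepest and ctrl 2 the shallowest library, although ctrl 3 was deeper than cko 1 and cko 2. Their parts in the counts were not tested.

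The strongest member, ranked by the weakest of its 3 cko peaks, lay in an intron near Pcca, a subunit of mitochondrial propionyl-CoA carboxylase (chr14:122715870-122716693). Its q was 37.4, 50.7 and 72.7 in cko 1, 2 and 3, it had a peak below the cut in ctrl 3 with a q of 5.31, and it was open in all 6 gpSSCs libraries. The next, near the zinc finger gene Zfp957 (chr14:79114595-79115366), had q of 33.7, 35.3 and 75.1 and no peak in any full ctrl list. A region 25.5 kb upstream of Itpr2, a calcium channel of the endoplasmic reticulum (chr6:146527137-146528026), had q of 29.7, 32.1 and 58.3. It was open in all 3 cko and none of the ctrl libraries of gpSSCs too, the same pattern in both populations. The strongest of the 4 gained regions of Tnc, the matrix protein tenascin C of periosteum and tendon (chr4:64324221-64325049), had q of 29.5, 52.7 and 66.7 and lay 278 kb before the gene, the farthest of the 4. The region 24.8 kb before Runx3, a skeletal transcription factor (chr4:135095574-135096203), had q of 29.5, 43.6 and 79.1. The remaining 7 of the 12 strongest were nearest to Rps15a, Gpam, Cdcp1, Slc37a3, Il4ra, Ltbp3 and Bmpr1b. Il4ra is a receptor subunit for interleukin 4, Ltbp3 binds latent TGF-beta and Bmpr1b is a BMP receptor. Of the 12, 5 lay in introns and 7 between genes, none at a start, 9 had a peak below the cut in ctrl 3, and 7 were open in all 6 gpSSCs libraries.

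At gene starts the members were few. A summit within 1 kb of an annotated start was found for 96 gained regions (5.21%, 95% Clopper-Pearson interval 4.24 to 6.32, counting error only), compared with 5.99% of lost, 32.9% of shared and 18.7% of all regions. The gained region at Prkg2, a cGMP-dependent kinase that acts in growth plate cartilage (chr5:98943698-98944271), had q of 27.2, 42.8 and 71.0. The one at Hp, haptoglobin (chr8:109578823-109579567), had 21.9, 20.6 and 27.8, and the one at Il2rb, a receptor chain for interleukin 2 and interleukin 15 (chr15:78493283-78493998), had 19.9, 34.3 and 53.1. The other 7 of the 10 strongest at starts were at 0610040J01Rik, Prss46, Pkp1, Fcrlb, Slc17a9, Rgs12 and Sema3g. Of these 10, 7 were open in all 6 gpSSCs libraries and 6 had a peak below the cut in ctrl 3. The RNA of 4 of these 10 genes, Prkg2, Hp, Slc17a9 and Sema3g, passed the count filter in pSSCs, and none of them passed the thresholds given below. Of all genes tested, 0.261% passed those thresholds as higher and 0.935% as lower. Sema3g had counts only in replicate 1, 50 in ctrl and 45 in cko. Genes under the filter were not tested. Of these, Rgs12 had 1, 4 and 3 counts in ctrl 1 to 3 and 3, 38 and 50 in cko. For 0610040J01Rik the counts were 0, 7 and 3 in ctrl and 0, 27 and 50 in cko. Pkp1 had 0, 2 and 2 in ctrl and 0, 3 and 6 in cko. Prss46 and Fcrlb had no counts, and Il2rb had 1 count, in cko 3.

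Introns held 945 gained regions (51.3%), intergenic sequence 745 (40.4%) and exons 57 (3.09%). The corresponding shares of all regions were 43.7%, 34.3% and 3.25%, and those of lost regions 46.9%, 44.6% and 2.49%, so gained and lost regions were alike in being rare at starts. The median distance from a gained summit to the start of the nearest protein-coding gene was 39.4 kb (quartiles 14.6 and 99.8 kb), compared with 49.4 kb for lost, 16.4 kb for shared and 27.3 kb for all regions. Of the gained regions, 835 lay upstream of that start, 69 (3.74%) within 1 kb of it and 459 (24.9%) over 100 kb away.

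**Figure D1:**
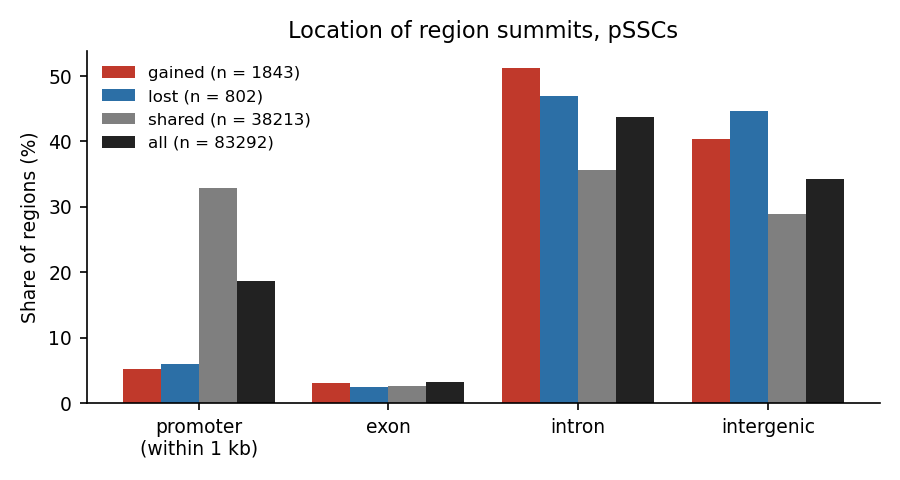
Share of region summits (%) at promoters (within 1 kb of an annotated start), in exons, in introns and in intergenic sequence, for the 1843 gained, 802 lost, 38213 shared and all 83292 pSSCs regions. Gained and lost bars stand near each other, and both are far below the shared bar at promoters (5.21% and 5.99% compared with 32.9%).

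Every autosome held gained regions. As a share of the regions on a chromosome, the highest values were 2.88% on chromosome 5 (141 of 4894) and 2.73% on chromosome 1 (161 of 5896), and the lowest on an autosome were 1.43% on chromosome 17 (49 of 3420) and 1.57% on chromosome 11 (85 of 5413). The X chromosome had 18 gained regions among 1940 (0.928%), below all autosomes (2.24% over all of them), while its share of lost regions, 1.34% (26 of 1940), was the highest of all chromosomes. Chromosome Y had 5 regions, none of them gained. The sex of the mice was not given in the labels used here. In the RNA libraries of pSSCs, Xist, which silences an X chromosome in female cells, had 306, 231 and 340 counts in ctrl and 272, 221 and 363 in cko, and the Y genes Ddx3y, Eif2s3y, Kdm5d and Uty had 0 or 1 count in each library, so these markers did not separate the groups. The sex behind the ATAC-seq libraries and its part in the X values were not tested.

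**Figure D2:**
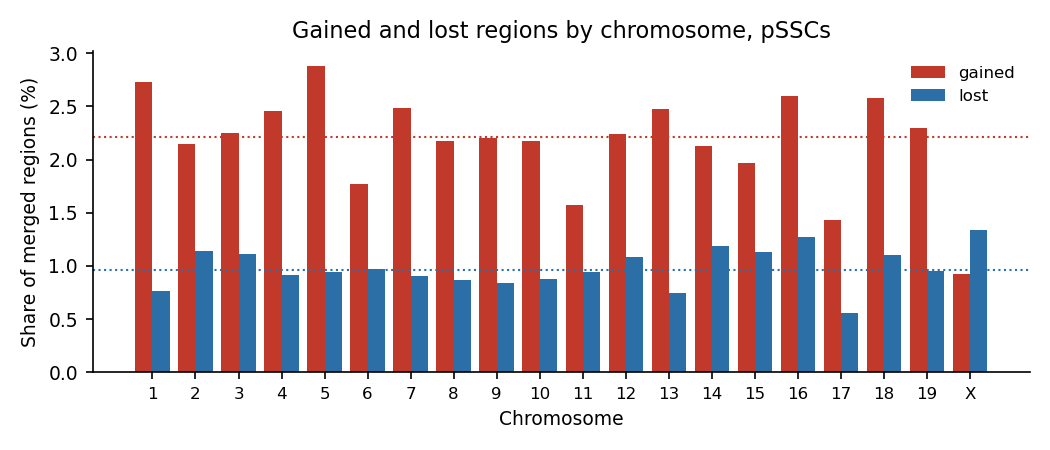
Gained (red) and lost (blue) regions as a share (%) of all merged pSSCs regions on each chromosome, with dotted lines at 2.21% and 0.963%, the shares over all chromosomes. Autosomes run from 1.43% to 2.88% gained, and chromosome X is the only one shown where the lost bar is the taller.

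Most gained regions stood alone. With members linked when at most 50 kb apart, 1486 were single, 141 groups held 2, 19 held 3, 2 held 4 and 2 held 5, so that 357 (19.4%) had another member within 50 kb. The share was 9.73% for the 802 lost regions and 89.3% for the 38213 shared regions, and it depends on how many regions a set has. Counting only the next region on either side, 161 gained regions (8.74%) had a gained neighbour, compared with 4.35% of all regions, and 41 lost regions (5.11%) had a lost neighbour, compared with 1.91% of all regions. The largest groups were 5 gained regions among 12 in 77.7 kb near Smim15 on chromosome 13 (chr13:107918082-107995777) and 5 among 13 in 117 kb near Myo10 and Retreg1 (chr15:25767555-25884885). The latter group lay in introns but for the region 6.75 kb before Retreg1. Myo10 is an unconventional myosin of filopodia, and Retreg1 a receptor for autophagy of the endoplasmic reticulum. A group of 4 lay near Cystm1 and Pfdn1 on chromosome 18, and another of 4 near Map3k7cl and Bach1, a repressor of oxidative stress genes (chr16:87597560-87717327). Near Ctsb, the lysosomal protease cathepsin B, and Fdft1, a cholesterol synthesis enzyme, all 3 regions in 10.1 kb were gained (chr14:63148395-63158464). This was also so for 3 of 3 near Mtss1, near Foxo1 and near Runx3.

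The 1843 regions had 1495 nearest protein-coding genes, of which 1227 had 1 gained region, 207 had 2, 50 had 3, 7 had 4 and the others had 5 to 7. Zeb2, a transcription factor of mesenchymal cells, had 7 gained among its 76 regions. Chst2, a carbohydrate sulfotransferase, had 6 of 22, and Inhba, the beta A subunit of activin A, had 6 of 36. Smim15 had 5 of 35, and Bmper, a modulator of BMP signalling, Cdh13, Dok5, Rbbp8, Retreg1, Runx1 and Tnc had 4 each. None of these 11 genes had a lost region.

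Among lists of genes for pathways named by the study and for related ones, the cell cycle inhibitors and senescence genes had the highest share of gained regions. Of the 129 regions nearest to the 16 genes of this list, 11 (8.53%) were gained and none lost, compared with 2.21% and 0.963% of all regions. The list was one of 11, the share has no test, and 3 regions each near Cdkn2b and Igfbp7 make up 6 of the 11. Cdkn2b, which encodes the CDK4 and CDK6 inhibitor p15, had gained regions 40.7, 49.5 and 115 kb before its start. The strongest of these (chr4:89359635-89360767) had q of 19.0, 17.7 and 35.3 in cko 1 to 3 and a peak below the cut in ctrl 3. The neighbouring gene Cdkn2a had its gained region at a start (chr4:89281955-89282590), with q of 9.30, 17.1 and 51.7, a peak below the cut in ctrl 3, and peaks in all 6 gpSSCs libraries. The gained region of Cdkn1a, the CDK inhibitor p21 induced by p53, lay 10.1 kb before its start (chr17:29080725-29081060), was 336 bp wide, had q of 12.1, 22.3 and 16.8, and had no peak in any full ctrl list or in any gpSSCs library. Cdkn1b (p27), Cdkn2c (p18) and Hmgb1, a chromatin protein released by stressed cells, had 1 each. Igfbp7, a secreted protein of senescent cells, had 3. Of the 11 regions, 7 were open in no gpSSCs library, 2 in all 6, and 4 had a peak below the cut in ctrl 3.

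Without the replicate number as a block, no gene of this list passed the RNA thresholds given below, which 0.261% of all genes tested passed as higher and 0.935% as lower. Of its 16 genes, 14 passed the count filter in pSSCs, and Cdkn2a and Cdkn2b did not. Cdkn2a had 0, 0 and 3 counts in ctrl 1 to 3 and 0, 1 and 1 in cko, so its expression was at the detection limit in both groups. Cdkn2b had 2, 4 and 10 counts in ctrl and 2, 19 and 30 in cko. Cdkn1a had 1277, 2446 and 3804 counts in ctrl and 2324, 5150 and 8301 in cko, or 1071 and 766 CPM (counts scaled to library size) in the 2 ctrl samples and 1217 and 1482 in the 2 cko samples. Both cko samples of Cdkn1a were above both ctrl samples, with a log2 fold change of 0.56 ± 0.45 (SE, n = 2 and 2) and an unadjusted p of 0.25 in edgeR. With the replicate number as a block 2 of the 14 genes were higher at the thresholds of the study and none lower, compared with 2.06% and 3.17% of all genes, and neither had an adjusted p under 0.05. Cdkn1a had a block log2 fold change of 0.57, an unadjusted p of 0.00824 and an adjusted p of 0.591 in edgeR. Gdf15, a stress-induced cytokine with no gained region, had 32.7 and 5.39 CPM in ctrl and 112 and 34.5 in cko, a block log2 fold change of 2.22, an unadjusted p of 0.00917 and an adjusted p of 0.591 in edgeR.

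Skeletal transcription factors followed with 20 gained regions among 579 (3.45%, 8 lost). Among them were those nearest to Zeb2 (7), Runx1 (4), Runx3 (3), Prrx1 (2), Runx2, Sox5 and Sox9. Nearest genes can be far away. The Zeb2 regions lay 9.21 to 1374 kb from its start, and the Sox9 region lay 251 kb from its start. Runx2 is required for osteoblasts, Sox5 and Sox9 for chondrocytes, and Prrx1 marks limb mesenchyme. All 3 gained regions of Runx3 were open in all 6 gpSSCs libraries. YAP targets and mechanosensing genes had 6 of 183 (3.28%, none lost). There was 1 each nearest to Amotl2, Axl, Ccn2, Wwtr1 (the co-activator TAZ) and the stretch-activated channels Piezo1 and Piezo2. For p53 targets 4 of 148 regions were gained (2.7%, nearest to Bbc3, Ccng1, Cdkn1a and Phlda3) and 3 lost (2.03%). The Ccng1 region lay 303 kb from its start. AP-1 and immediate early genes had 9 of 336 (2.68%, 4 lost) and extracellular matrix genes 16 of 761 (2.1%, 5 lost). These gained shares were near the 2.21% of all regions, of which 0.963% were lost. Integrins and focal adhesion had 4 of 242 (1.65%, 2 lost) and NF-kB and inflammation 3 of 190 (1.58%, 2 lost). Interferon and antigen presentation had 1 of 97 (1.03%, nearest to Irf8, none lost). Nuclear lamina and envelope had 1 of 101 (0.99%, 333.5 kb from the start of Tmpo, none lost). Cell death had 1 of 113 (0.885%, nearest to Bid, 1 lost). The study displayed ATAC-seq tracks of Gbp6, Snai2 and Cdkn1a as more accessible in pSSCs, and of these only Cdkn1a had a gained region. Col5a1, Itga2, Itga11 and Aspn, displayed as less accessible in pSSCs, had neither a gained nor a lost region. Il7, Cxcl9, Col2a1, Fn1 and Lum, displayed for gpSSCs, and Zmpste24 itself had no gained region under this rule. The study compared read counts in peaks with DESeq2, and not the presence of peaks in cut lists.

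**Figure D3:**
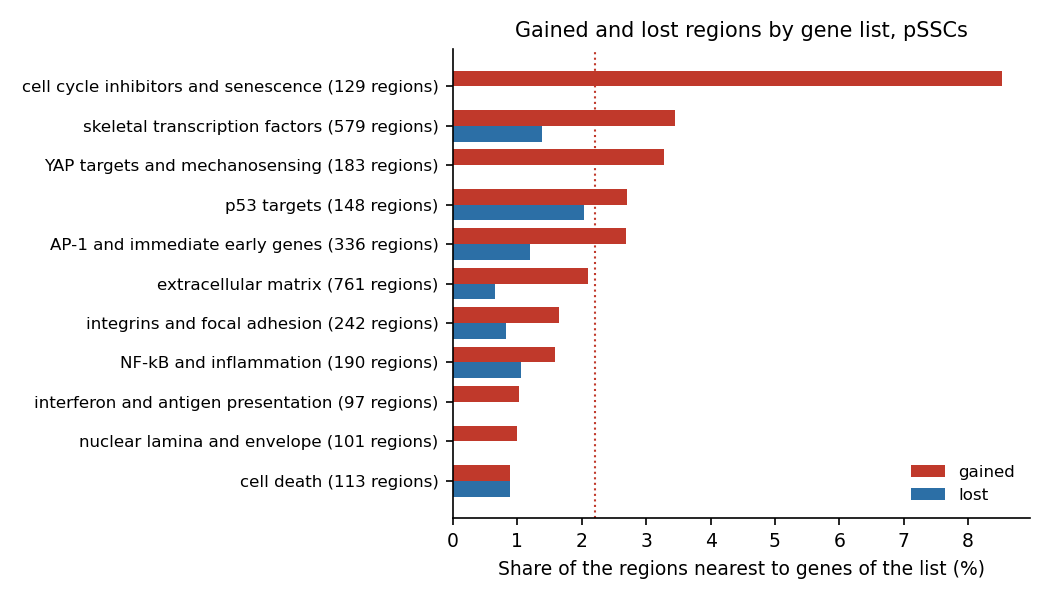
Gained (red) and lost (blue) regions as a share (%) of the pSSCs regions nearest to the genes of each list, with the number of regions in brackets and a dotted line at 2.21%, the gained share of all regions. The cell cycle inhibitors and senescence list stands highest at 8.53% with no lost region, and the other lists lie between 0.885% and 3.45%.

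The gpSSCs libraries were not used by the rule, so openness there is a separate reading of the same places. Their lists were cut to 68916 peaks each, the length of the shortest, that of cko 3. Gained regions had a gpSSCs peak in 43.8%, 39.4% and 37.9% of cases in ctrl 1 to 3 and in 45.5%, 45.0% and 38.4% in cko 1 to 3. The means were 40.4% ± 3.08 in ctrl and 43.0% ± 3.94 in cko (SD, n = 3 each), and the groups overlapped. The difference of 2.57 percentage points was within the spread of the libraries (two-sided exact permutation test p = 0.3, smallest possible 0.1). Over lost, shared and all regions cko was lower than ctrl, with differences of -2.95, -2.99 and -1.92 points (exact p of 0.1, 0.1 and 0.2). The gpSSCs library cko 3 stood apart from the others, with 57.0% to 64.5% of the regions of a pair in both, compared with 66.6% to 73.3% among the other 5. Without it the difference over gained regions was 5.66 points (exact p = 0.2). With the full gpSSCs lists, whose lengths run from 68916 to 98518 peaks, it turned to -4.56 points (exact p = 0.5).

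In every gpSSCs library gained regions were open more often than lost regions, by 14.3 to 24.6 points with a mean of 19.2 ± 4.13 (SD, n = 6), in 6 of 6 libraries. All 6 libraries read the same 2 sets of regions, so they are no replicates of this difference, which is given as a description with no test. They were open less often than all regions (mean of the 6 libraries 41.7% compared with 48.2%) and than shared regions (71.6%). Of the 1843 gained regions, 469 (25.4%) were open in all 6 gpSSCs libraries and 732 (39.7%) in none, compared with 92 (11.5%) and 494 (61.6%) of the lost regions. Peak strength differed between the sets too, with a median fold enrichment of 5.83 to 7.52 for gained regions in cko and 4.84 to 5.9 for lost regions in ctrl. Its part in the difference was not tested.

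**Figure D4:**
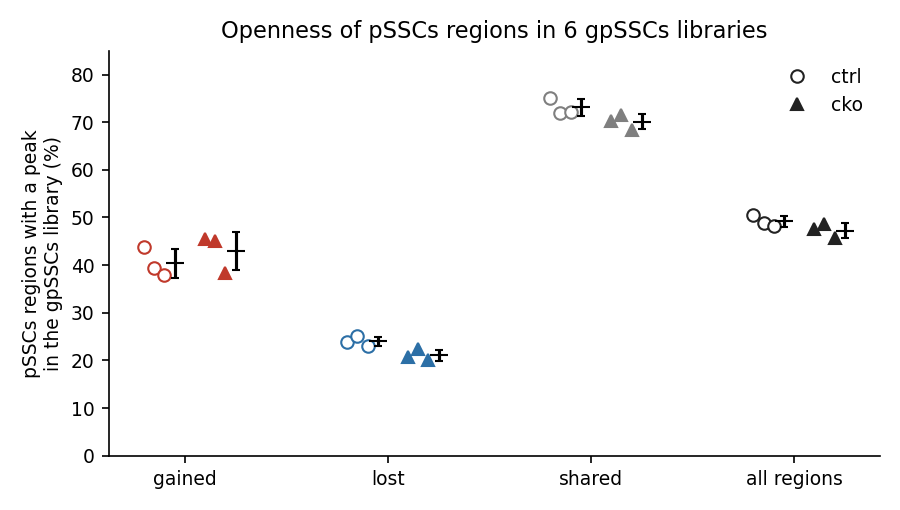
Share (%) of gained, lost, shared and all pSSCs regions with a peak in each of the 3 ctrl (open circles) and 3 cko (triangles) gpSSCs libraries, with the mean and SD of each group beside the points. Gained regions lie between 37.9% and 45.5%, above lost regions (20.0% to 25.1%) in each library, and the ctrl and cko points of gained regions overlap.

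Openness in gpSSCs was higher the stronger the member was in pSSCs, from 33.9% of the 461 weakest members by q, through 41.5% and 42.6%, to 48.6% of the 461 strongest. The share with a peak below the cut in ctrl 3 ran the same way, from 47.9% to 58.6%. By place it was 57.3% for the 96 members at promoters, 43.3% in introns, 38.4% between genes and 31.0% in exons. Of the gained regions, 4 (0.217%, compared with 0.104% of all pSSCs regions) were open in all 3 cko and no ctrl gpSSCs library, those near Itpr2, Snx18, Prag1 and Chst2. The 2 near Stk32c and Ube2u (0.109%, compared with 0.389% of all) had the opposite pattern. Such patterns were rare in gpSSCs altogether. Of 104768 gpSSCs regions made by the same steps, 258 (0.246%) were gained in cko, and 4 overlapped a gained pSSCs region, which is 0.217% of the 1843 and 1.55% of the 258.

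RNA was read in the same kinds of cells. In pSSCs the libraries held 1333260, 3040833 and 4970995 counts in ctrl and 1875248, 3264327 and 5315709 in cko. Replicates 2 and 3 of each group agreed within sampling noise over genes of low to middle counts, where their chi-square divided by its degrees of freedom lay between 0.82 and 0.98, while replicate 1 gave 10.2 to 13.1 against either. Over all genes with at least 20 counts this value was 1.59 to 1.92 for replicates 2 and 3, and 53.2 to 71.5 with replicate 1, so replicates 2 and 3 may be separate but nearly alike. They were summed and counted as 1 sample, which leaves 2 samples a group. Of the 1495 genes nearest to gained regions, 1028 (68.8%) passed the count filter. At the thresholds of the study (unadjusted p under 0.05 and absolute log2 fold change over 0.25), 5 were higher in cko (0.486%, compared with 0.261% of the 11878 genes tested) and 4 lower (0.389%, compared with 0.935%). The study applied these thresholds in DESeq2 to 3 libraries a group, a fit that was not made here, so the numbers of genes cannot be set against its own. The balance of higher and lower genes was not stable, with 4 higher and 5 lower when DESeq2 size factors scaled the libraries. This was 1 of 7 settings, among 14 besides the main one, with more lower than higher genes. All genes tested had more lower than higher calls in the main fit (31 higher and 111 lower) and with DESeq2 size factors (31 and 122). Such a lean was thus not particular to the nearest genes. With Benjamini-Hochberg adjustment edgeR called none, as it called none of all genes (0.0%), although 142 of all genes and 9 of these had an unadjusted p under 0.05, and DESeq2 called none with an adjusted p. The median log2 fold change of the 1028 genes was 0.05, and 52.4% of them were above 0, compared with a median of -0.02 and 48.7% for all genes. It was -0.18 for the 468 tested genes nearest to lost regions, of which 2 were higher and 6 lower.

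With the replicate number as a block, 23 of the 1028 genes were higher (2.24%, compared with 2.06% of all genes) and 25 lower (2.43%, compared with 3.17%), and the median was 0.11 compared with 0.01. The 9 genes past the thresholds without the block were past them with it, in the same direction. An adjusted p under 0.05 was reached by 2 nearest genes with the block (0.195%, compared with 0.32% of all genes), both lower in cko. Prrx1 had a block log2 fold change of -1.36 and an adjusted p of 0.0417. Gsn, the actin-severing protein gelsolin, had 45120 and 24061 CPM in the 2 ctrl samples and 23069 and 12819 in the 2 cko samples, a block log2 fold change of -0.94 and an adjusted p of 7.38e-42. This fit has 1 residual degree of freedom, and over the other settings the adjusted p of both genes reached 1. Gsn was not past the thresholds of the study without the block (edgeR unadjusted p = 0.068), and it was past them in 4 of 11 further settings.

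The higher gene with the smallest p was Nt5dc2, which with Fut9 is 1 of the 2 with a gained region at its start. It had 8, 17 and 22 counts in ctrl 1 to 3 and 165, 182 and 244 in cko, or 6.71 and 4.78 CPM in the ctrl samples and 86.4 and 46.9 in the cko samples. The log2 fold change was 3.56 ± 0.98 (SE), with an edgeR unadjusted p of 0.0053 and an adjusted p of 1 (0.11 with the block). Its region (chr14:31133832-31134942) had q of 11.7, 15.8 and 33.9 in cko, a peak below the cut in ctrl 3 and peaks in 2 ctrl and 2 cko gpSSCs libraries. In gpSSCs the log2 fold change of Nt5dc2 was 0.02 (unadjusted p = 0.97 in edgeR). Col22a1, a collagen of tissue junctions, had 17.6 and 40.1 CPM in ctrl and 93.8 and 150 in cko. Tnfaip6, the hyaluronan-binding protein TSG-6 induced by inflammation, had 161 and 172 CPM in ctrl and 297 and 481 in cko. Fut9, a fucosyltransferase, had 2.52 and 2.69 CPM in ctrl and 35.6 and 16.3 in cko, and its gained region at the start (chr4:25798996-25800303) was open in no gpSSCs library. Zfp90, a zinc finger gene, had 0.0 and 0.735 CPM in ctrl, from 0, 2 and 4 counts, and 15.7 and 11.1 in cko. The groups did not overlap for any of these genes. They were chosen for a small p with 2 samples a group, so this follows largely from the choice and adds no evidence.

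Of the 4 lower genes, Prrx1 had 624 and 341 CPM in the ctrl samples and 168 and 191 in the cko samples (log2 fold change -1.43 ± 0.54, edgeR unadjusted p = 0.0273). Its gained regions lay in an intron (chr1:163252282-163253031) and in an exon just downstream of its start (chr1:163311923-163312793), the latter open in all 6 gpSSCs libraries. Maf, a transcription factor of mesenchymal and immune cells, had 164 and 99.5 CPM in ctrl and 33.0 and 46.9 in cko. Its 42 regions held 1 gained and 3 lost ones. Of the 1495 genes nearest to a gained region, 158 were also nearest to a lost one. Plxna1, a semaphorin receptor, had 138 and 33.1 CPM in ctrl and 17.8 and 18.8 in cko. Nr1h4, the bile acid receptor FXR, had 34.4 and 3.80 CPM in ctrl and 0.524 and 0.441 in cko. For these genes, chosen in the same way, the samples of the groups did not overlap either, but ctrl replicate 1 set much of the ctrl mean. Without ctrl replicate 1, 10 nearest genes were higher (0.876%, compared with 0.906% of all genes) and 1 lower (0.0876%, compared with 0.361%), and without cko replicate 1 it was 1 (0.0878%, compared with 0.107%) and 5 (0.439%, compared with 0.784%), so all genes shifted in the same way. Prrx1, Maf, Plxna1 and Nr1h4 were not past the thresholds in either of these settings, and neither were Fut9, Zfp90 and Tnfaip6, while Nt5dc2 missed them without cko replicate 1 and Col22a1 without ctrl replicate 1. Each of the 9 genes kept its direction over all other settings in which it was tested.

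**Figure D5:**
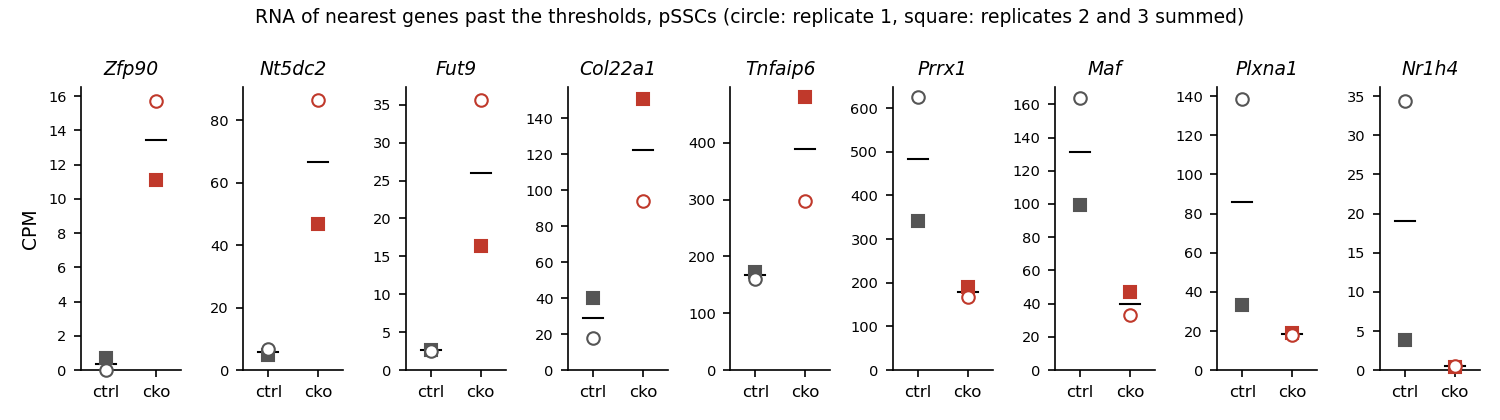
RNA (CPM, linear axes of different height) of the 9 nearest genes past the thresholds of the study in pSSCs, ordered from the highest to the lowest log2 fold change. Circles are replicate 1, squares replicates 2 and 3 summed and bars the group mean. In each panel the 2 cko points (red) lie on 1 side of the 2 ctrl points (grey), which follows largely from choosing the genes by p.

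Genes with more than 1 gained region numbered 268, of which 199 were tested, 1 was higher (0.503%) and 2 lower (1.01%), with a median log2 fold change of 0.20. For the 652 tested genes with a gained region within 50 kb the counts were 5 (0.767%) and 2 (0.307%) with a median of 0.08, and for the 31 with a region within 1 kb they were 2 (6.45%) and 0 with a median of -0.06. The shares of all genes tested were 0.261% and 0.935%. In gpSSCs 1041 of the nearest genes were tested, 5 were higher and none lower, compared with 0.307% and 0.166% of the 12041 genes tested there. EdgeR called none of those 12041 with an adjusted p (0.0%), with 57 at an unadjusted p under 0.05. DESeq2 called 1 of the 19436 genes it tested. Without cko replicate 1 the counts turned to 4 higher and 12 lower (0.354% and 1.06%, compared with 0.324% and 0.971% of all genes). With the block 20 were higher and 20 lower, compared with 2.12% and 1.73% of all genes. The median log2 fold change was 0.005, compared with 0.0022 for all genes.

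Markers of cell types were read in the same RNA samples. Ly6a, the gene of the sorting antigen Sca1, had 1243 and 2814 CPM in the ctrl samples and 1204 and 2913 in the cko samples. The 10 periosteal stromal markers summed to 31100 and 30300 CPM in ctrl and to 16000 and 20300 in cko, with Dcn (decorin) the most abundant, and 2 of them, Igfbp6 and Prrx1, were lower at the thresholds of the study, compared with 0.935% of all genes. With the block 1 was higher and 4 were lower, compared with 2.06% and 3.17% of all genes. Dcn had 13912 and 19436 CPM in ctrl and 6935 and 11693 in cko, and Igfbp6 had 11199 and 4877 in ctrl and 3890 and 2611 in cko. In edgeR their adjusted p was 1 without the block and 3.7e-20 and 2.42e-20 with it, a fit with 1 residual degree of freedom. Not all markers of the list had this direction. Postn (periostin) had 94.8 and 90.8 CPM in ctrl and 385 and 123 in cko (log2 fold change 1.45, edgeR unadjusted p = 0.0579, and 0.00871 with the block, where its adjusted p was 0.591), and Col3a1 had a log2 fold change of 0.15. Chondrocyte markers, led by Col2a1, were present in all samples (7140 and 3660 CPM in ctrl, 6220 and 3260 in cko). Myeloid markers summed to 99.0 and 50.4 CPM in ctrl and to 41.4 and 43.3 in cko, with 9 of 12 genes under the count filter and Cd14, with 91.4 CPM in ctrl 1, the most abundant. Lyz2, a lysozyme of macrophages, had 5.03 and 0.245 CPM in ctrl and 25.7 and 7.27 in cko (block log2 fold change 3.44, unadjusted p = 0.00858, adjusted p = 0.591 in edgeR). Of the 8 lymphoid genes 7 were under the filter. Hbb-bs, a globin of red cells, had 2.52 and 690 CPM in ctrl and 19.4 and 454 in cko, following the replicate number and not the group. Without the block no tested endothelial, mural, skeletal muscle or marrow stromal marker passed the thresholds (0.261% of all genes higher, 0.935% lower). With the block Des and Cxcl12 were higher and Egfl7 lower (edgeR unadjusted p of 0.0248, 0.0476 and 0.0414, adjusted p of 0.788, 0.936 and 0.905). Des had 0.0 and 7.23 CPM in ctrl and 12.6 and 27.8 in cko. Egfl7 had 40.3 and 38.2 in ctrl and 3.14 and 16.9 in cko. Of all regions 2.21% were gained and 0.963% lost. Of the regions nearest to periosteal stromal markers 5 of 162 were gained (3.09%, nearest to Cd34, Col3a1, Postn and Prrx1, none lost). Gained regions were 3 of 114 near marrow stromal markers (2.63%, 1 lost) and 2 of 144 near chondrocyte markers (1.39%, 1 lost). They were 3 of 95 near endothelial markers (3.16%, 2 lost) and 1 of 32 near myeloid markers (3.12%, none lost). The share was 2 of 33 near mural markers (6.06%, nearest to Notch3 and Rgs5, 1 lost). The shares below each rest on 1 gained region. They were 1 of 17 near skeletal muscle markers (5.88%, nearest to Des, none lost) and 1 of 22 near osteoblast markers (4.55%, at Bglap, 1 lost). Mast and basophil markers had 1 of 22 (4.55%, nearest to Kit, 2 lost). Schwann cell markers had 1 of 28 and tendon markers 1 of 28 (3.57% each, none lost). None of the 7 regions near lymphoid and none of the 7 near erythroid markers was gained. Fewer cells of a type and less RNA per cell cannot be told apart in such bulk samples, and the part of cell content in the gained regions was not tested.

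Zmpste24 itself was read at low counts. In pSSCs it had 1, 51 and 84 counts in ctrl 1 to 3 and 0, 28 and 41 in cko, or 0.839 and 16.5 CPM in the ctrl samples and 0.0 and 7.60 in the cko samples. In gpSSCs the counts were 11, 48 and 80 in ctrl and 2, 21 and 29 in cko. In both populations every cko library was lower than the ctrl library of the same number, but the log2 fold changes of -1.17 and -1.13 were not past the thresholds (edgeR unadjusted p of 0.60 and 0.45). A transcript that lacks only the floxed part can still be counted, so the counts are a limited check of the labels. Of the 2 regions nearest to Zmpste24, 1 was shared and none was gained or lost.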

How the data were processed

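ATAC-seq and bulk RNA-seq of 12 libraries each (3 ctrl and 3 cko of pSSCs and of gpSSCs) were used. The authors aligned ATAC-seq reads to mm10 with Bowtie2, removed mitochondrial and duplicate reads and called peaks per library with MACS2 2.2.7.1 (q-value threshold 0.05, no control library). The deposited pileup signal counts tags at a summit, unscaled for depth, and the authors computed the −log10 p-value, the −log10 q-value and the fold enrichment, a ratio over the local background, within each library. The deposited RNA-seq counts were made by the authors with STAR and HTSeq after removal of duplicates by molecular identifiers, without normalization.

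Peaks on chromosomes 1 to 19, X and Y were ranked by −log10 q-value, each pSSCs list was cut to 59186, and kept peaks were merged at an overlap of 1 bp. Summits were placed against GENCODE vM21 (32093 genes for the place, 21938 protein-coding genes for the nearest gene). RNA was tested with edgeR 4.0.16 (TMM, quasi-likelihood test, Benjamini-Hochberg adjustment) on R 4.3.3, with DESeq2 1.42.0 as an alternative on the same 2 samples a group. Of 53801 identifiers 53620 had a symbol. Same-numbered ctrl and cko RNA libraries deviated together (correlations 0.55 to 0.59), so the numbers of the titles were taken as pairs. The members, gene lists and tests were chosen with earlier results of these data known. Genes named are those nearest to the 12 strongest regions, up to 10 at starts, those of the 5 largest groups, those past the thresholds of the study, list members with a gained region, and genes with tracks in the study. Other genes were named after their values were seen, namely the 5 printed promoters, the genes with most gained regions, groups of 3, Gsn and the genes of patterns shared with gpSSCs. The scripts were tested on simulated data. No genome sequence was used, so GC content and motifs over whole regions were not analysed here.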

Additional observations from a re-analysis of the deposited data

How the results depend on the processing

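The number of gained regions followed the rule. It was 3289 with full lists, 725 with each list cut to the strongest 50% of the shortest and 2839 with all peaks of a −log10 q-value of at least 5, and leaving out each library gave 2295 to 3616 (3214 without ctrl replicate 3, 3616 without cko replicate 1). Of the 1843 members 862 were also gained with full lists (46.8%) and 47 with that shorter cut (2.55%). An added alternative, chosen after seeing the data, asked for no peak in any full ctrl list and left 862. The share of gained regions at promoters was 9.66% with the shorter cut and 9.44% for starts within 2.5 kb, and 4.93% to 6.09% without each library. The share with a member within 50 kb was 9.51% among those 862, 10.3% with the shorter cut and 22.5% to 32.0% without each library, and it was 10.3% with a limit of 20 kb and 31.6% with 100 kb. Ranking by fold enrichment gave 1994 but held only 66.5% of the 1843 members, and summit windows gave 1868 and held 99.1%. With all peaks of at least that −log10 q-value of 5, 68.0% of the members were held. The causes of these changes were not tested, apart from fewer libraries making the rule easier to meet.

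The cko minus ctrl difference in gpSSCs openness reversed to -4.56 points with full lists and ran from 1.31 to 5.66 points without each library. With the replicate block it stayed 2.57 (exact p = 0.25, the smallest possible).

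For RNA of nearest genes in pSSCs the 9 genes past the thresholds became 48 with the replicate block (2.24% higher and 2.43% lower, compared with 2.06% and 3.17% of all genes). They became 85 with 3 libraries a group (5.71% and 2.96%, compared with 3.7% and 3.68%). With both, added after seeing the data, there were 187 (11.3% and 7.76%, compared with 8.61% and 8.27%). DESeq2 gave 23 (8 higher and 15 lower, 0.64% and 1.2%, compared with 0.608% and 1.48%). No filter gave 19 (7 and 12, 0.56% and 0.96%, compared with 0.414% and 1.22%). The nearest gene of at least 1 CPM gave 14 (6 and 8, 0.426% and 0.569%, compared with 0.261% and 0.935%). Without each of replicates 2 and 3 there were 9 or 10 (0.4% to 0.519% in each direction, compared with 0.283% to 0.347% and 0.974% to 1.02%). The 5 higher and 4 lower genes became more lower than higher ones in 7 of 14 settings. These were DESeq2, no filter, the nearest gene of at least 1 CPM, the replicate block (23 and 25) and DESeq2 size factors (4 and 5). The others were without cko replicate 1 or 2 (4 and 5 without 2). All genes had more lower than higher calls in the main fit (31 and 111), with the block (245 and 376) and with DESeq2 size factors (31 and 122). Without cko replicate 2 they had 32 and 110. In gpSSCs the 5 genes became 40 with the replicate block, 53 with 3 libraries a group (2.65% and 2.76%, compared with 2.3% and 2.45%), 143 with both (7.35% and 7.24%, compared with 6.19% and 5.68%), 8 with DESeq2 (0.556% and 0.0794%, compared with 0.504% and 0.324%), 9 without a filter (0.635% and 0.0794%, compared with 0.607% and 0.324%), 3 with regions within 50 kb of the gene, and 4 to 16 without each replicate. The 5 higher and 0 lower genes turned to 4 higher and 12 lower without cko replicate 1 (0.354% and 1.06%, compared with 0.324% and 0.971% of all genes). Where replicate 1 is left out, the lone sample is assumed to vary like the other group. A nearest gene reached an adjusted p under 0.05 only in pSSCs, 2 with the replicate block (0.195%, compared with 0.32% of all genes) and 1 with 3 libraries and the block (0.102%, compared with 0.0458%). In gpSSCs with the block it was none, compared with 0.0997% of all genes. The part of depth in these counts was not tested.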
